A study of Mus musculus with 11 samples.

Results

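The genes described here encode the matrix metalloproteinases (MMPs), the ADAM and ADAMTS proteases, the ADAMTS-like proteins and the tissue inhibitors of metalloproteinases (TIMPs) in the whole mouse ovary. They were the protein-coding genes of the count table whose symbol is Mmp, Adam, Adamts, Adamtsl or Timp followed by a number. This rule, less 2 family genes that are not analysed here, gave 81 of the 54232 genes in the table: 21 Mmp, 33 Adam, 18 Adamts, 5 Adamtsl and 4 Timp genes. Enough reads for a test were found for 58 of them.

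The samples are bulk RNA libraries of whole ovary from wild-type mice, 4 at 2 months of age, 4 at 18 months and 3 at 24 months. The series concerns young, old and post-reproductive ovaries. The labels name no strain and no treatment. They also do not tell whether each library is a separate animal or a pool of ovaries, so p-values measure the spread between these samples, which may be technical. Library names give 8 weeks for the 2 month group and 22 months for the 24 month group. The groups are called by their sample titles.

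MMPs are zinc proteases that cut collagens, laminins and other matrix proteins, and most are secreted as inactive proenzymes. ADAMs are membrane proteins that release the outer parts of cytokines, growth factors and receptors, whereas ADAMTSs are secreted and cut proteoglycans and procollagens. TIMPs bind the active site of these enzymes. In the ovary this system is known for opening the follicle wall at ovulation and for building and removing the corpus luteum.

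Of the 11 libraries, 9 held 26061630 to 33407509 counts, and 18 month replicates 3 and 4 held 5231724 and 8892915. These 2 differed by little more than sampling noise, with a chi-square of 1.10 per gene where the next most alike pair within an age gave 28.7, so they were added together and used as 1 sample. All values rest on 4, 3 and 3 samples. Oocyte markers checked the tissue: all 8 fell from 2 months to both later ages, and their summed level in counts-per-million (CPM) ranged over 236 to 557 in the 2 month samples, 30.4 to 65.8 in the 18 month samples and 6.15 to 41.2 in the 24 month samples. Of 8 macrophage markers, 7 rose by 18 and 8 by 24 months (summed level 227 to 289, 474 to 654 and 543 to 620 CPM in the 3 groups), and of 6 T cell markers, 5 and 6 rose. Of 8 surface epithelium markers 5 and 6 rose, and of 6 granulosa cell markers 3 fell at each later age. Of all genes tested, 6.04% and 19.2% rose and 5.51% and 15.8% fell at 18 and 24 months. Mast cell markers summed to 46.0 to 54.3 CPM in the 2 month samples, 20.3 to 47.1 in the 18 month samples and 53.2 to 229 in the 24 month samples. The proteases of this list, Cma1, Tpsb2 and Mcpt4, reached at most 1.17, 1.65 and 0.758 CPM at 2 months. They stood at 0.512, 0.654 and 0.427 CPM in 24 month replicate 2. Most of the sum in these samples thus came from the other genes of the list. Oviduct epithelium markers stood at 694 CPM in 24 month replicate 3, against 1.91 to 66.0 CPM in the other 9 samples. In whole-tissue RNA, fewer cells of a type and less RNA per cell cannot be told apart. The part that these cell types had in the results below was not tested.

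Expression of the family was concentrated in few genes. CPM here is scaled by the trimmed mean of M-values (TMM), and levels of different genes are ranked as CPM per kilobase (kb) of exons. Timp1 had the highest mean level over all 10 samples (169 CPM per kb), followed by Timp2 (103), Mmp2 (72.8), Mmp11 (49.1), Mmp14 (37.5), Timp3 (33.8) and Adam10 (33.7). The 5 highest genes held 62.7% of the summed CPM per kb of all 81. In reads, not corrected for length, 31 genes reached a mean of 10 CPM or more and 33 lay under 1 CPM. Of the 23 genes without a test, 11 had no read in any library, most of them ADAMs known from the testis (Adam20, Adam24, Adam25, Adam26a, Adam26b, Adam29, Adam34 and Adam39).

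**Figure D1:**
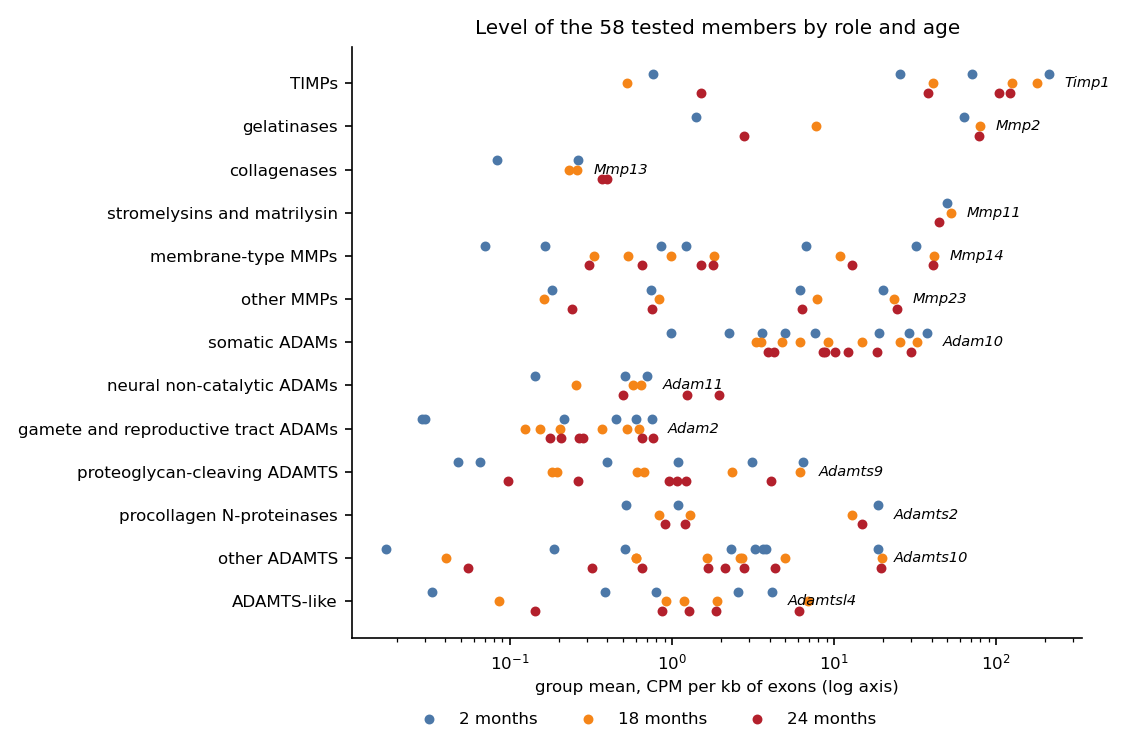
Mean level of each of the 58 tested genes at 2 (blue), 18 (orange) and 24 months (red) in CPM per kb of exons on a log axis, with 1 row per role. The named gene is the highest of its role at 2 months. Timp1 reached 212 CPM per kb at 2 months, and the collagenases stayed under 1 CPM per kb.

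The letters upstream of the start sites were set beside these levels. RefSeq (GRCm38.p6) gave windows of 250 bases upstream of the RefSeq start for 50 of the 81 genes. This start can differ from the start in the gene coordinates that go with the counts. The letters of 3 elements, none of which contains another, were searched on both strands: TGANTCA for the AP-1 site, TATAAA for the TATA box, and for the GC box of Sp1-type factors GGGCGG. The GC box was found in 23 of the 50 genes (46%, against 32.7% of 32851 windows of all genes), and all 23 had enough reads for a test, with a median of 5.56 CPM per kb. The 27 genes without it had a median of 0.0286 CPM per kb, and 11 of them were tested. The other tested members, Adam33, Mmp9 and Adamts8 among them, had no window and are in neither group. The AP-1 letters were found in 10 genes (20%, against 6.75% of all windows) and the TATA box in 11 (22%, against 12.4%), and 2 of each were tested. A member was counted if any of its windows matched, with 54 windows for the 50 genes. The shares of all genes are per window, so the shares compared are of unlike units. Whether these elements go with level over all genes was not examined. A match is a description of the letters in this window. Windows are shown for 3 abundant genes that were higher at both later ages and for 3 secreted MMPs with means under 1 CPM. This choice was made after the levels and matches were seen. Capitals mark the GC box in the former, read on either strand, and the AP-1 and TATA letters in the latter, in mm10 coordinates, written in the direction of the gene.
Timp2 (chr11:118355412-118355661, minus strand): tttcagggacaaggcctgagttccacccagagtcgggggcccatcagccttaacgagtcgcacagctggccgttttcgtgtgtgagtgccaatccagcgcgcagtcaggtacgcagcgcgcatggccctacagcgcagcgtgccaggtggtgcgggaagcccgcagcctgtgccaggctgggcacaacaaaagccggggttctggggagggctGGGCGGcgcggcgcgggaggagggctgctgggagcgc
Timp3 (chr10:86300162-86300411, plus strand): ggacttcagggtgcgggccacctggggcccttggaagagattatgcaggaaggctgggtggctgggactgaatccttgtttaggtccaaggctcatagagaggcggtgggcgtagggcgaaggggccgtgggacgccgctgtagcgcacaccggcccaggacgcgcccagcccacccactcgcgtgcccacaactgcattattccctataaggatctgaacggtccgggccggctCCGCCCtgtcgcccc
Mmp15 (chr8:95352046-95352295, plus strand): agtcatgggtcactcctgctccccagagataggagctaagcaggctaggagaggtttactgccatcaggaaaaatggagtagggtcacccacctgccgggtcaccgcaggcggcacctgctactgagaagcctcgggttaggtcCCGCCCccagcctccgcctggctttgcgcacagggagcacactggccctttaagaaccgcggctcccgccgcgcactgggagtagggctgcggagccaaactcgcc
Mmp3 (chr9:7445572-7445821, plus strand): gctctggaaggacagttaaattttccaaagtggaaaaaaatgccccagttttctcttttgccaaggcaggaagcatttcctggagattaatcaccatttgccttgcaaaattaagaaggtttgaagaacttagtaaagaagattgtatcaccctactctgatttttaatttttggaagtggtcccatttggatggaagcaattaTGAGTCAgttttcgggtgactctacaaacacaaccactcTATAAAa
Mmp10 (chr9:7502092-7502341, plus strand): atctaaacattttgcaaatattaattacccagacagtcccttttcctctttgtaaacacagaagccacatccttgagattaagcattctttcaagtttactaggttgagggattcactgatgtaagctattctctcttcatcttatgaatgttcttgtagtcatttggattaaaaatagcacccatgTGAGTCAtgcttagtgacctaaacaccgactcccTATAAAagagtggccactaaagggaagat
Mmp13 (chr9:7272264-7272513, plus strand): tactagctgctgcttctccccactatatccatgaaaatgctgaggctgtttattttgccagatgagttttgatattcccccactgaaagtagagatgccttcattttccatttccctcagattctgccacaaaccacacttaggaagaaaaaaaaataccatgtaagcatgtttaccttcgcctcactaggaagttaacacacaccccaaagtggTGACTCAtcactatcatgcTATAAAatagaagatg
Timp2, Timp3 and Mmp15 held 1 GC box each and neither other element, at mean levels of 103, 33.8 and 9.82 CPM per kb. By the gene coordinates that go with the counts, the whole Timp2 window lies inside the gene (chr11:118301069-118355740). The Timp3 and Mmp15 windows run past the gene starts at 86300372 and 95352268. The GC boxes of Timp2 and Timp3 are thus upstream of the RefSeq start only. Mmp3, Mmp10 and Mmp13 held 1 AP-1 site and 1 TATA box each and no GC box. Their mean levels were 0.0108, 0.0957 and 0.294 CPM per kb.

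These 3 secreted MMPs belong to a run of 8 members within chr9:7272514-7699585 (Mmp13, Mmp1b, Mmp3, Mmp10, Mmp8, Mmp27, Mmp20 and Mmp7), known as the MMP gene cluster. Only Mmp13, Mmp8 and Mmp27 had enough reads for a test, none of the 8 exceeded a mean of 0.785 CPM, and none passed the test in any comparison. Mmp1b and Mmp20 had no read. On chromosome 8, chr8:40675077-40827037 and chr8:43519762-43710049 hold 7 ADAM genes without a read in any library.

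Between 2 and 18 months, 7 of the 58 tested members rose and none fell: Timp2, Timp3, Mmp9, Mmp15, Adam33, Adamts8 and Adamtsl5. This is 12.1% of the members, next to 11.6% of all 20331 genes tested (6.04% higher and 5.51% lower), by edgeR's quasi-likelihood F-test with Benjamini-Hochberg adjustment and a threshold of 0.05. The share called was thus near that of all genes, while all 7 calls were upward. The median log2 fold change of the members was 0.33, against 0.01 for all genes. Samples did not overlap between the ages for 16 members that were higher and 3 that were lower, against 13.7% of all genes in each direction. Between 2 and 24 months, 19 members rose and 6 fell (43.1%, with 32.8% higher and 10.3% lower), against 35.0% of all genes (19.2% higher and 15.8% lower). The median was 0.50, against 0.03 for all genes. Here 13 members were higher and 6 lower without overlap, against 21.7% and 20.4% of all genes. Both comparisons use the same 2 month samples. The calls at 18 months depend on single samples: without 2 month replicate 1, 1 member was called, without 2 month replicate 2 and without 18 month replicate 2, 2 each, without the summed 18 month sample, 3, and without 2 month replicate 4, 4. At 24 months 14 were called without 2 month replicate 1.

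**Figure D2:**
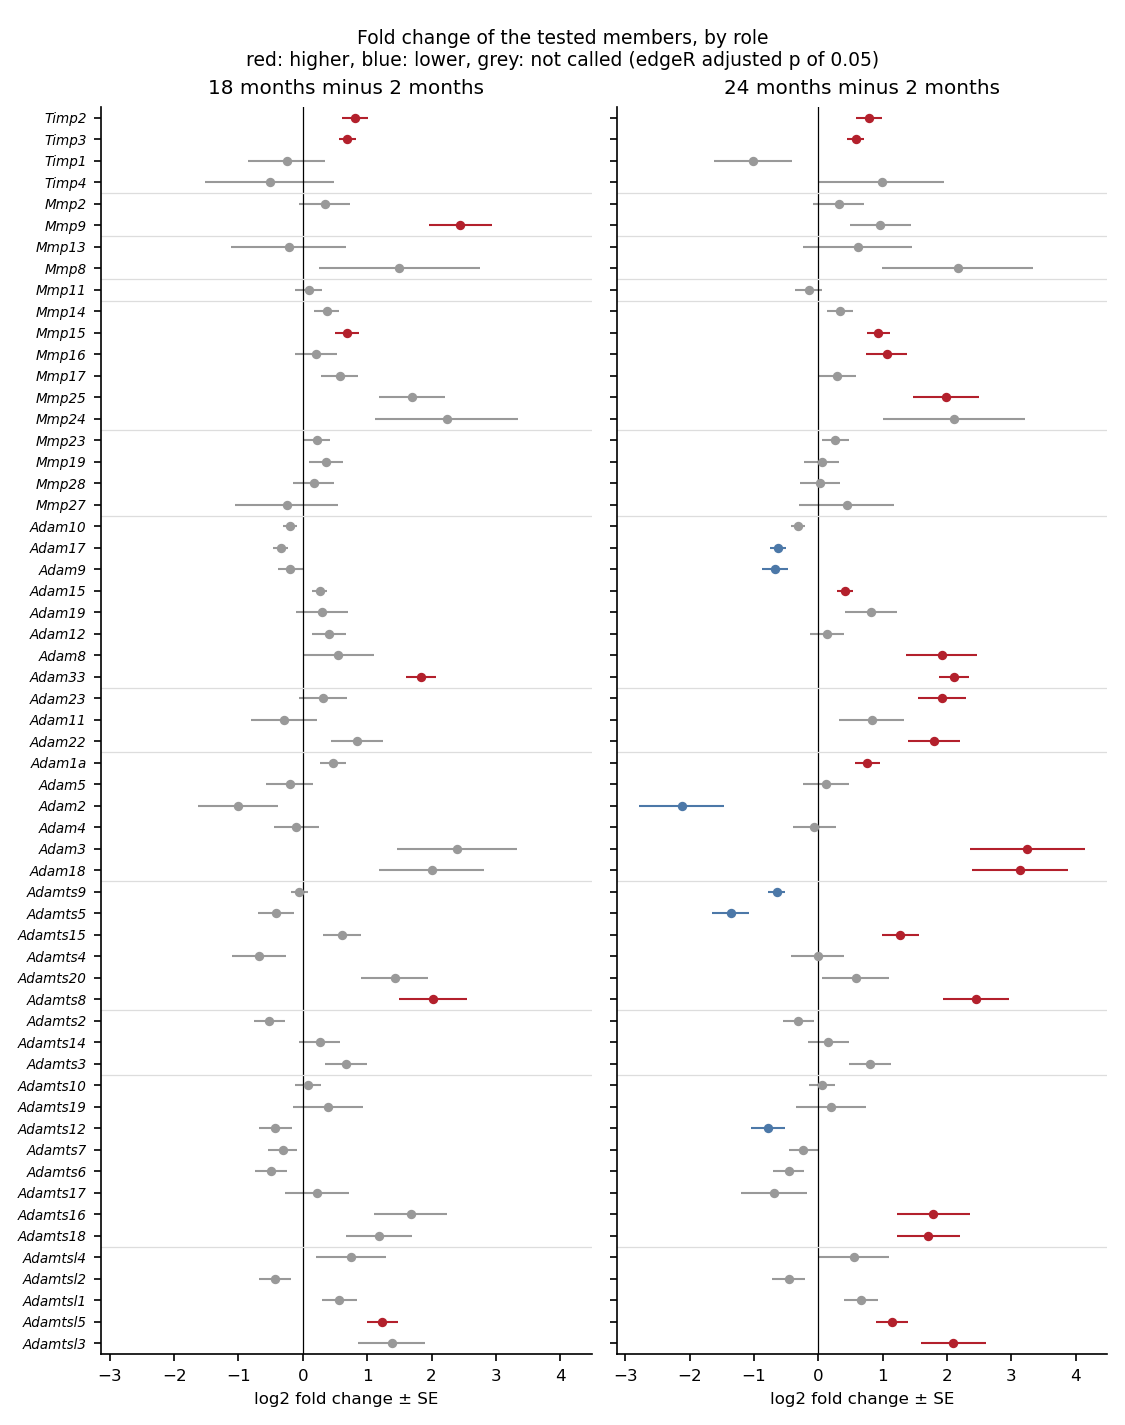
Log2 fold change with its SE for the tested members against 2 months, at 18 months (left) and 24 months (right), grouped by role with lines between roles. Red points passed the test as higher, blue as lower and grey did not pass. At 18 months 7 points are red and none is blue, and at 24 months 19 are red and 6 blue.

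Among the 4 inhibitors, Timp2 and Timp3 rose at both later ages and Timp1 and Timp4 passed in neither comparison. Timp2 (chr11:118301069-118355740), which inhibits most MMPs and also takes part in activating pro-MMP2, stood at 265, 248, 284 and 315 CPM in the 2 month samples. It stood at 481, 594 and 387 CPM at 18 months and 337, 559 and 537 CPM at 24 months, so that every older sample lay above every 2 month sample. The log2 difference was 0.81 at 18 months (SE 0.201, edgeR's adjusted p = 0.0332) and 0.78 at 24 months (SE 0.201, edgeR's adjusted p = 0.0165). Leaving out single samples lost the 18 month call in 7 of 10 cases (any 1 of the 2 or 18 month samples; adjusted p at most 0.116, without 18 month replicate 2) and the 24 month call without 24 month replicate 2 or 3 (0.0632 at most).

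Timp3 (chr10:86300372-86349506) encodes the inhibitor that is bound to the matrix and also blocks ADAM17 and aggrecanases. Its levels were 205, 191, 251 and 179 CPM at 2 months, 355, 336 and 308 CPM at 18 months, and 338, 279.8 and 311 CPM at 24 months, again without overlap. The log2 difference was 0.69 at 18 months (SE 0.133, edgeR's adjusted p = 0.0168) and 0.58 at 24 months (SE 0.133, edgeR's adjusted p = 0.0107). The 18 month call did not hold without 18 month replicate 2 or 2 month replicate 1 (highest adjusted p 0.0586). Timp3 lies within Syn3 on the other strand and shares exon positions with it, and no source used here gives the strand setting of the counting. Of the tested members, 16 share exon positions with another gene, among them Adam17 with Iah1, Adamts9 with A730049H05Rik, Mmp11 with Chchd10, and Adamts8 and Adam15 with antisense genes, and their counts are uncertain to that extent.

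Timp1, a secreted inhibitor, varied widely within each age and is described here outside the naming rule because of its level. It stood at 303, 91.6, 144 and 214 CPM at 2 months, at 289.6, 128 and 56.0 CPM at 18 months, and at 137, 100.2 and 41.5 CPM at 24 months. The groups overlapped at both ages, and the log2 fold change at 24 months was -1.02 (SE 0.606, edgeR's adjusted p = 0.214). Per kb, Timp1 was the highest TIMP at 2 months (68.5% of the sum of the 4) and at 18 months (51.6%), and Timp2 at 24 months (45.9%). The summed CPM per kb of the TIMPs over that of the MMPs ranged over 1.02 to 2.30 in the 2 month samples, 1.04 to 2.48 in the 18 month samples and 0.972 to 1.83 in the 24 month samples, and the ranges overlapped.

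**Figure D3:**
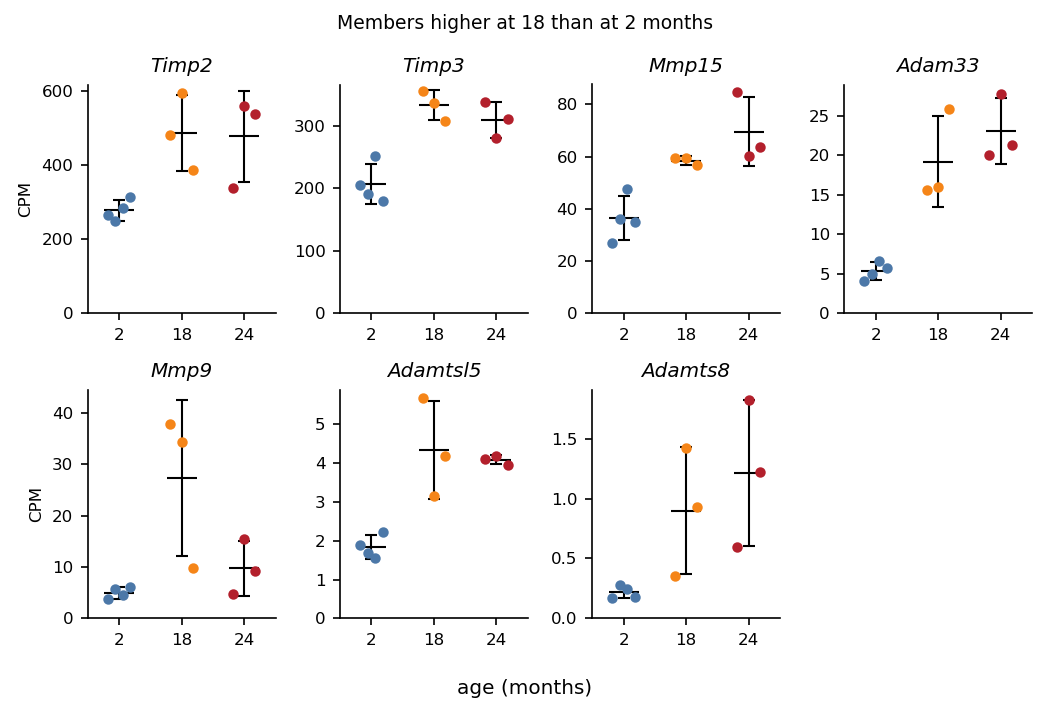
CPM of the 7 members higher at 18 than at 2 months in each sample (points), with the group mean and SD (bars), 4 samples at 2 months and 3 each at 18 and 24 months. For Adam33, the 2 month samples lie between 4.10 and 6.66 CPM and the older samples between 15.7 and 27.8 CPM, whereas for Mmp9 the 18 and 24 month samples overlap.

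Of the 2 gelatinases, which cut type IV collagen and denatured collagen, Mmp9 rose at 18 months and Mmp2 passed in neither comparison. Mmp9 (chr2:164940780-164955850) was at 3.69, 5.75, 4.47 and 6.15 CPM at 2 months and at 37.9, 34.3 and 9.87 CPM at 18 months, the summed sample being the lowest of the 3. At 24 months it was at 4.78, 15.4 and 9.19 CPM, a range that overlaps both other ages. The log2 difference was 2.45 at 18 months (SE 0.488, edgeR's adjusted p = 0.0185), 0.97 at 24 months (adjusted p = 0.141) and -1.48 from 18 to 24 months (adjusted p = 0.457). The 18 month call did not hold without 18 month replicate 2, 2 month replicate 1 or 2 month replicate 2 (highest adjusted p 0.0642). Mmp2 stood at 213 ± 39.2 CPM at 2 months (SD, n = 4), 269 ± 104 at 18 months and 265 ± 174 at 24 months (n = 3 each), with 389 and 465 CPM in replicate 2 of the older ages and 143 to 219 CPM in their other samples.

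The membrane-type MMPs were positive in log2 fold change for all 6 members at both ages, with 1 call (16.7% of 6) at 18 months and 3 (50%) at 24 months, next to 11.6% and 35.0% of all genes. Mmp15 (chr8:95352268-95375080; MT2-MMP) stood at 27.0, 36.0, 47.7 and 34.9 CPM at 2 months, 59.3, 59.5 and 56.6 CPM at 18 months and 84.7, 60.4 and 63.7 CPM at 24 months. Every older sample lay above the 2 month samples, with a log2 difference of 0.68 (SE 0.181, edgeR's adjusted p = 0.0406) and 0.94 (SE 0.181, edgeR's adjusted p = 0.00604). The 18 month call was lost in 6 of the 10 fits without a sample (highest adjusted p 0.11, without 18 month replicate 2). Mmp14 (MT1-MMP), the activator of pro-MMP2, was the highest of this role and gave 0.37 and 0.34 (adjusted p = 0.241 and 0.205).

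Mmp16 (MT3-MMP) rose at 24 months from 5.56 to 8.89 CPM in the 2 month samples to 8.70, 20.8 and 17.0 CPM, with a log2 difference of 1.06 (SE 0.325, edgeR's adjusted p = 0.0313). The lowest 24 month sample lay within the 2 month range, and the call was lost in 5 of 10 fits without a sample (highest adjusted p 0.126, without 24 month replicate 2). Mmp25 (MT6-MMP), known from leukocytes, was at 0.552 to 1.14 CPM at 2 months, 2.55 to 3.19 CPM at 18 months and 0.933, 3.36 and 6.08 CPM at 24 months. Its log2 difference was 1.70 at 18 months (adjusted p = 0.0605, and 0.0123 and 0.0319 without 24 month replicates 1 and 3) and 1.98 at 24 months (SE 0.513, adjusted p = 0.017), and the latter call did not hold without 2 month replicate 1 or 24 month replicate 3 (log2 difference 1.32, adjusted p = 0.0696, without the latter).

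None of the collagenases, stromelysins or other MMPs passed the test at either age. Mmp11 (stromelysin-3) stood at 138 ± 26.6, 147 ± 31.8 and 124 ± 30.3 CPM (SD, n = 4, 3 and 3). Mmp23 stood at 47.2 ± 9.51, 55.0 ± 12.7 and 56.8 ± 12.5 CPM, and Mmp19 at 21.7 ± 4.70, 27.9 ± 6.76 and 22.5 ± 7.93 CPM. Their groups overlapped at all ages. The collagenase Mmp8, known from neutrophils, was under 1 CPM in each group mean, with a log2 difference of 2.17 at 24 months (adjusted p = 0.174). Its 24 month samples stood at 0.0746, 0.398 and 2.21 CPM, with replicate 3 the highest. This difference ranged over 0.33 to 2.71 in the alternatives.

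The somatic ADAMs moved in both directions. Adam33 (chr2:131050591-131063814), a catalytically active ADAM known from smooth muscle cells and fibroblasts, had the smallest adjusted p of the 58 genes at both ages and kept its calls in every alternative. Its levels were 4.10, 4.94, 6.66 and 5.72 CPM at 2 months, 15.7, 16.02 and 25.8 CPM at 18 months and 20.004, 27.8 and 21.4 CPM at 24 months. The groups lay far apart, with a log2 difference of 1.84 at 18 months (SE 0.233, edgeR's adjusted p = 0.00829) and 2.11 at 24 months (SE 0.233, edgeR's adjusted p = 0.00162). Beside this, of 7 smooth muscle and pericyte markers none rose at 18 months and 2 (28.6%) at 24 months. Of 6 fibroblast markers 2 (33.3%) and 3 (50%) rose. Of all genes, 6.04% and 19.2% were higher at these ages. A link of Adam33 to these cell types was not tested.

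Adam17 and Adam9 fell at 24 months. Adam17 (chr12:21323509-21373632), the enzyme that releases tumour necrosis factor and ligands of the epidermal growth factor receptor, stood at 141, 124, 140.3 and 134 CPM at 2 months. It stood at 124, 103 and 90.7 CPM at 18 months and 96.8, 84.2 and 81.8 CPM at 24 months, and in the last group no sample reached the 2 month range. The log2 difference was -0.35 at 18 months (adjusted p = 0.0865, and 0.0392 without 18 month replicate 1) and -0.62 at 24 months (SE 0.120, edgeR's adjusted p = 0.00591), and the latter held without each single sample. Adam9 (chr8:24949611-25016927), another sheddase, was at 139, 91.5, 143 and 107 CPM at 2 months and 82.6, 74.3 and 69.4 CPM at 24 months. Its log2 difference at 24 months was -0.67 (SE 0.198, edgeR's adjusted p = 0.0273), and the call did not hold without 2 month replicate 1 or 3 or 24 month replicate 2 or 3 (highest adjusted p 0.0824). Adam10, which cuts Notch receptors, was the highest ADAM and gave -0.32 at 24 months (SE 0.113, adjusted p = 0.0533, and 0.0283, 0.0465 and 0.0367 without 18 month replicate 2, the summed 18 month sample and 2 month replicate 3), with 167 to 197 CPM at 2 months and 147 to 148 CPM at 24 months.

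Adam15 and Adam8 rose at 24 months. Adam15 stood at 45.4, 40.9, 55.3 and 45.7 CPM at 2 months and 65.9, 64.7 and 57.0 CPM at 24 months, a log2 difference of 0.42 (SE 0.120, edgeR's adjusted p = 0.025), and the call did not hold without 2 month replicate 1 or 24 month replicate 2 (highest adjusted p 0.0769). Adam8, known from leukocytes, was at 8.33 to 12.6 CPM at 2 months and at 19.1, 19.1 and 80.4 CPM at 24 months. The third value is 24 month replicate 3, the sample with the high oviduct epithelium markers. The log2 difference was 1.92 (SE 0.550, edgeR's adjusted p = 0.025) with that sample and 0.89 (adjusted p = 0.134) without it, and the call was also lost without 2 month replicate 1 (0.0679) or 3 (0.06) and without the count filter (0.0693).

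**Figure D4:**
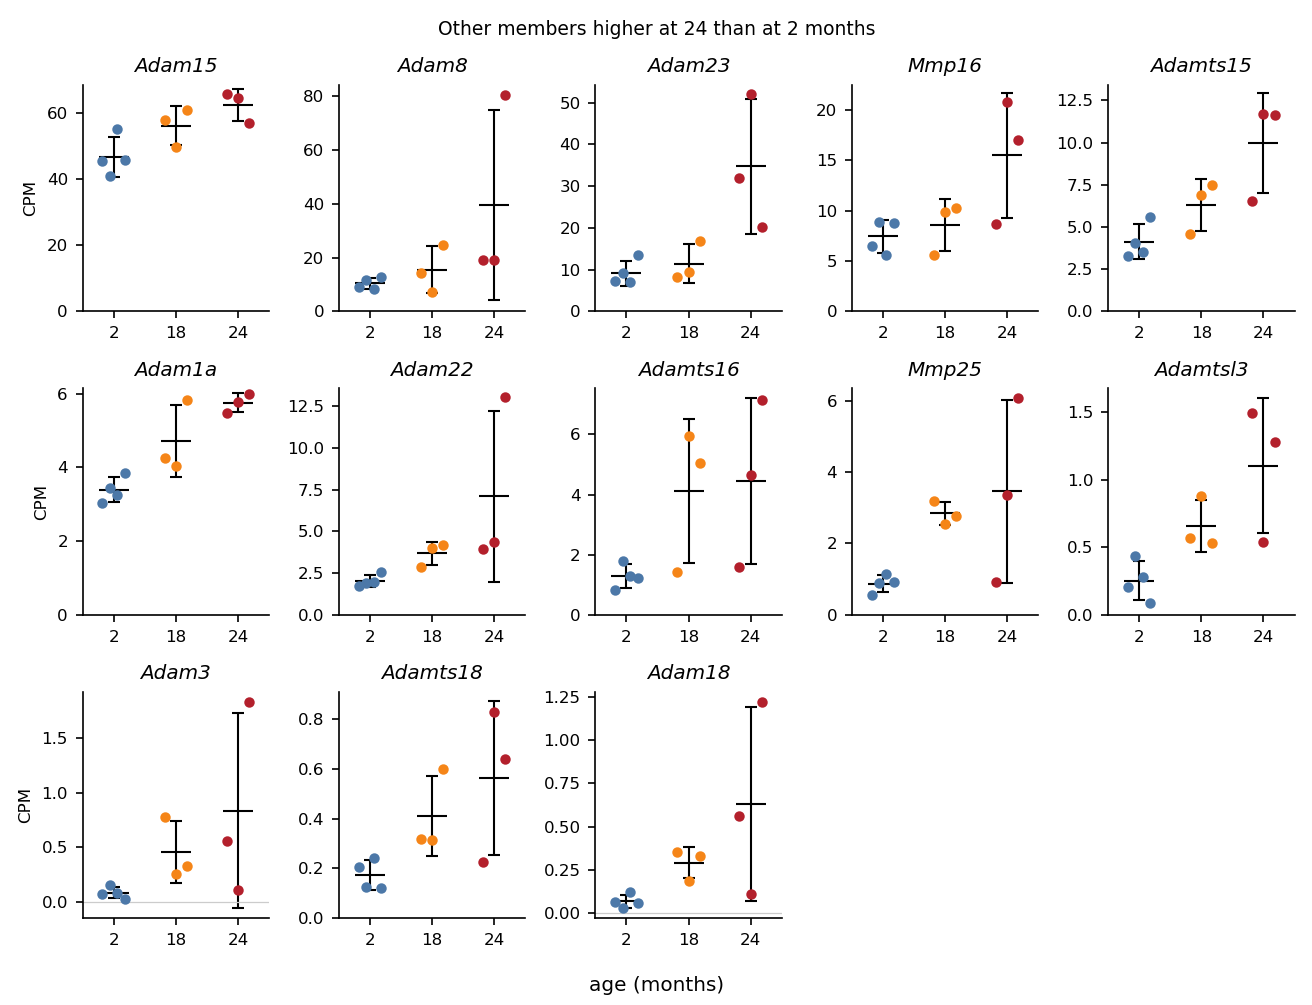
CPM of 13 further members higher at 24 than at 2 months in each sample (points), with the group mean and SD (bars). For Adam8, Adam22, Mmp25, Adamts16, Adam3 and Adam18, 24 month replicate 3 is the highest sample, and for Adam1a the 24 month samples lie between 5.49 and 5.99 CPM.

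Adam22 and Adam23, which lack protease activity and bind LGI proteins at synapses, rose at 24 months. Adam23 stood at 7.17, 9.11, 6.94 and 13.4 CPM at 2 months, 8.19, 9.43 and 16.8 CPM at 18 months and 32.0, 52.0 and 20.1 CPM at 24 months. Every 24 month sample lay above all others, with a log2 difference of 1.92 (SE 0.373, edgeR's adjusted p = 0.00622). Adam22 was at 1.76 to 2.56 CPM at 2 months, 2.87 to 4.18 CPM at 18 months and 3.96, 4.35 and 13.0 CPM at 24 months, with 1.79 (SE 0.407, edgeR's adjusted p = 0.0105). Both calls held without each single sample. Without 24 month replicate 3, the highest sample of Adam22, its difference was 1.03 (adjusted p = 0.0251). Adam11, the third of this role, gave 0.83 (adjusted p = 0.218, and 0.046 without 24 month replicate 3).

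Of the 21 ADAMs known mainly from sperm and the male tract, 6 had enough reads for a test. Adam2 (fertilin beta), part of the sperm surface, fell from 2.72, 1.06, 2.27 and 2.10 CPM at 2 months to 0.933, 0.341 and 0.145 CPM at 24 months, with a log2 difference of -2.12 (SE 0.660, edgeR's adjusted p = 0.033). The call was lost in 5 of 10 fits without a sample (highest adjusted p 0.106, without 24 month replicate 2), and the difference was -3.02 without 24 month replicate 1. Adam1a (fertilin alpha) rose from 3.03 to 3.84 CPM at 2 months to 5.49 to 5.99 CPM at 24 months, with 0.76 (SE 0.196, edgeR's adjusted p = 0.0166), and the call did not hold without 2 month replicate 1 (adjusted p = 0.0534). Adam1a shares exon positions with Mapkapk5 on the same strand, so reads of the 2 genes may be mixed.

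Adam3 and Adam18, neighbours within chr8:24602246-24725852, were called higher at 24 months on few reads, 127 and 90 counts over all samples. Adam3 was at 0.0304 to 0.155 CPM at 2 months and 0.560, 0.114 and 1.83 CPM at 24 months, and Adam18 at 0.0311 to 0.122 CPM and 0.560, 0.114 and 1.22 CPM. In both, 24 month replicate 3 was highest and replicate 2 within the 2 month range. The log2 difference was 3.25 for Adam3 and 3.13 for Adam18 with all samples, and without replicate 3 it was 1.91 (adjusted p = 0.118) and 2.20 (adjusted p = 0.0588), and the Adam3 call was also lost without 2 month replicate 1 (0.0589) or 4 (0.0531). Adam9, which fell at 24 months, ends the same run of 5 ADAM genes (chr8:24602246-25016927).

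**Figure D5:**
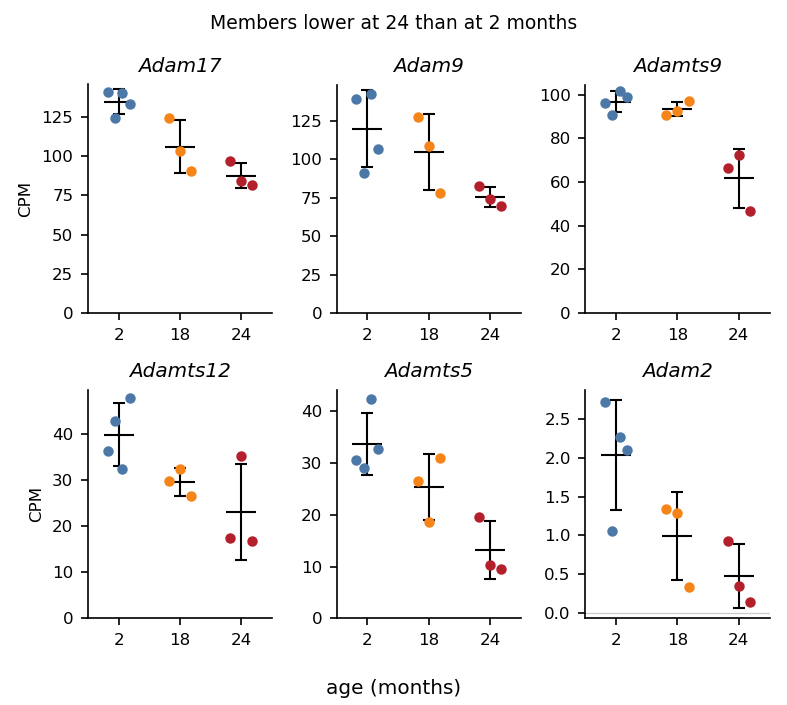
CPM of the 6 members lower at 24 than at 2 months in each sample (points), with the group mean and SD (bars). In Adam17, Adam9, Adamts5, Adamts9 and Adam2 no 24 month sample reaches the 2 month range, and in Adamts12 24 month replicate 2 at 35.2 CPM lies within it.

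The ADAMTSs that cut aggrecan and versican split at 24 months, with Adamts5 and Adamts9 lower and Adamts15 and Adamts8 higher. Adamts5 (chr16:85856173-85901828), an aggrecanase, stood at 30.6, 29.1, 42.4 and 32.8 CPM at 2 months, 26.5, 18.5 and 31.1 CPM at 18 months and 19.6, 10.3 and 9.57 CPM at 24 months. All 24 month samples lay under the 2 month samples, with a log2 difference of -1.36 (SE 0.284, edgeR's adjusted p = 0.00796). Adamts9 (chr6:92772699-92943492), a versican-cleaving enzyme, was at 95.9, 90.7, 102 and 98.7 CPM at 2 months, 90.8, 92.4 and 96.95 CPM at 18 months and 66.5, 72.2 and 46.5 CPM at 24 months. The 2 and 18 month samples overlapped and the 24 month samples lay under both, with -0.65 against 2 months (SE 0.138, edgeR's adjusted p = 0.00812). Both calls held without each single sample.

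Adamts15 and Adamts8 are neighbours on chromosome 9 (chr9:30899155-30963838) and are transcribed from opposite strands. Adamts15 was at 3.31, 4.07, 3.53 and 5.60 CPM at 2 months and 6.53, 11.7 and 11.7 CPM at 24 months, a log2 difference of 1.27 (SE 0.287, edgeR's adjusted p = 0.0104). Adamts8 was at 0.172, 0.280, 0.244 and 0.183 CPM at 2 months, 0.354, 1.419 and 0.928 CPM at 18 months and 0.597, 1.82 and 1.22 CPM at 24 months. In both genes every 24 month sample lay above the 2 month samples, and Adamts8 gave 2.02 at 18 months (SE 0.529, edgeR's adjusted p = 0.0393) and 2.45 at 24 months (SE 0.519, edgeR's adjusted p = 0.00807). The 18 month call of Adamts8 was lost in 6 of 10 fits without a sample (highest adjusted p 0.158, without 18 month replicate 2).

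The procollagen N-proteinases, which trim fibrillar procollagens, had 3 tested members and no call. Adamts2 stood at 173 ± 17.4 CPM at 2 months (SD, n = 4), 121 ± 20.6 at 18 months and 140 ± 58.7 at 24 months (n = 3 each), with log2 fold changes of -0.52 and -0.31 (adjusted p = 0.18 and 0.331, and 0.0482 and 0.0197 without 24 month replicate 2). Among the other ADAMTSs, Adamts12, which cuts cartilage oligomeric matrix protein, fell from 39.9 ± 6.82 to 23.2 ± 10.4 CPM at 24 months, with -0.78 (SE 0.260, edgeR's adjusted p = 0.0416), a call lost in 8 of 10 fits without a sample (highest adjusted p 0.154, without 24 month replicate 3), with library totals alone (-0.61, 0.112), with the stricter filter (0.0507) and with the compared ages only (0.0714). Adamts16 rose from 1.29 ± 0.401 to 4.46 ± 2.76 CPM (1.79, adjusted p = 0.036) and Adamts18 from 0.174 ± 0.0609 to 0.563 ± 0.308 CPM (1.71, adjusted p = 0.0243). Each of these 2 calls was lost in 5 of 10 fits without a sample, with an adjusted p of at most 0.142 without 24 month replicate 3 for Adamts16 and 0.103 without 24 month replicate 2 for Adamts18. Adamts10, a binder of fibrillin, was the highest ADAMTS per kb and stood at 153 ± 8.80, 162 ± 43.4 and 159.8 ± 37.3 CPM.

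ADAMTS-like proteins share the ancillary domains of ADAMTSs without the protease domain, and several bind fibrillin microfibrils. Adamtsl5 rose at both ages, from 1.90, 1.68, 1.54 and 2.22 CPM at 2 months to 5.67, 3.15 and 4.18 CPM at 18 months and 4.11, 4.18 and 3.95 CPM at 24 months. No older sample overlapped the 2 month samples, with log2 fold changes of 1.24 (SE 0.246, edgeR's adjusted p = 0.0183) and 1.15 (SE 0.245, edgeR's adjusted p = 0.00831). The 18 month call did not hold without the summed 18 month sample, 2 month replicate 1 or 2 month replicate 2 (highest adjusted p 0.0594). Adamtsl3 rose at 24 months from 0.0913 to 0.435 CPM to 1.49, 0.541 and 1.28 CPM, with 2.10 (SE 0.505, edgeR's adjusted p = 0.013). Adamtsl4 was the highest per kb of this role and gave 0.74 and 0.55 (adjusted p = 0.395 and 0.451), and the 24 month value turned to -0.24 without 24 month replicate 1.

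Between 18 and 24 months, no member passed edgeR's test, against 0.00492% of all genes, 1 gene, which was higher, and 0.0% lower. At an unadjusted p of 0.05, 7 members (12.1%) passed, near the 10.4% of all genes, and DESeq2 called 2, Adam23 higher (1.59, adjusted p = 0.0212) and Adamts9 lower (-0.61, adjusted p = 0.034). With the replicate number as a block, 0 genes and 0 members passed edgeR's test. Samples of the 2 ages did not overlap for 2 members that were higher and 1 that was lower at 24 months, against 6.73% and 5.36% of all genes. The median log2 fold change was 0.04, against 0.03 for all genes.

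The genes that activate, restrain or receive these proteases were counted from 3 lists. Of 31 tested activators, cofactors and other inhibitors, 3 rose and none fell at 18 months. This is 9.68%, against 11.6% of all genes called (6.04% higher). At 24 months 14 rose and 1 fell (45.2% and 3.23%, against 19.2% and 15.8% of all genes). The median log2 fold change was 0.31 and 0.75, against 0.01 and 0.03 for all genes. Serping1, the C1 inhibitor, rose from 146 ± 8.38 to 352 ± 61.6 and 336 ± 88.9 CPM (1.26 and 1.20, edgeR's adjusted p = 0.0104 and 0.00273). Tspan10, a tetraspanin that associates with ADAM10, rose at both ages (2.53 and 2.86, adjusted p = 0.0252 and 0.00601), and its 18 month call was lost in 5 of 10 fits (at most 0.079, without the summed 18 month sample). Tspan10 rests on few reads, 109 counts over all samples, with group means of 0.0828, 0.511 and 0.634 CPM. Its 24 month difference was 2.25 without 24 month replicate 3. Spock2 rose at 24 months from 136 ± 20.4 to 335 ± 62.9 CPM (1.30, adjusted p = 0.00398). Serpine2, a serpin that blocks urokinase and thrombin, fell from 396 ± 71.2 to 193 ± 44.8 CPM (-1.04, adjusted p = 0.00705).

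Of 11 tested further metzincins and matrix proteases, 1 rose at 18 months (9.09%, against 11.6% of all genes called and 6.04% higher). At 24 months 5 rose and 1 fell (45.5% and 9.09%, against 19.2% and 15.8% of all genes). The median was 0.29 and 0.73. Adamdec1, an ADAM-like secreted protease of macrophages, rose from 0.744 ± 0.125 to 2.41 ± 0.134 and 1.64 ± 0.430 CPM (1.69 and 1.14, edgeR's adjusted p = 0.0117 and 0.0106). The mast cell proteases Cma1 (5.05, adjusted p = 0.0165) and Mcpt4 (5.58, adjusted p = 0.017) rose at 24 months. Their 24 month levels, 19.2 ± 20.01 and 15.7 ± 15.9 CPM, had SDs as large as the means, and both are also in the mast cell marker list. Without the count filter their adjusted p was 0.0553 and 0.057. Without 24 month replicate 1 the differences were 3.89 and 4.51, and that of Mcpt4 was 6.39 without 2 month replicate 1. Htra1, a secreted serine protease, fell from 888 ± 114 to 295 ± 46.1 CPM (-1.59, adjusted p = 0.00741).

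Of 20 tested substrates of ADAMs and ADAMTSs, 4 rose at 18 months (20%, against 11.6% of all genes called and 6.04% higher). At 24 months 9 rose and 3 fell (45% and 15%, against 19.2% and 15.8% of all genes). The median was 0.19 and 0.95. Cd44, the hyaluronan receptor, rose from 15.2 ± 1.88 to 31.4 ± 0.517 and 48.9 ± 1.24 CPM (1.05 and 1.69, edgeR's adjusted p = 0.00829 and 0.000687). Acan, which encodes the proteoglycan aggrecan, rose at 24 months from 1.16 ± 0.392 to 23.4 ± 18.2 CPM (4.32, adjusted p = 0.00452), and by 3.52 without 24 month replicate 2. Il6ra, the interleukin 6 receptor, rose by 0.99 and 1.02 (adjusted p = 0.0117 and 0.00255). Tnf, the cytokine released by ADAM17, rose by 1.79 and 2.04 (adjusted p = 0.028 and 0.00705) from 0.310 ± 0.174 CPM at 2 months, and Vwf, von Willebrand factor, by 1.36 at 18 months (adjusted p = 0.0261). The 18 month call was lost in 5 of 10 fits without a sample for Tnf (at most 0.0874, without 2 month replicate 1) and in 4 for Vwf (at most 0.09, without 18 month replicate 2). The counts of these lists stand beside those of all genes given above and were not tested as sets.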

How the data were processed

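Per the labels' protocols, whole-ovary RNA was prepared with Trizol and a DNase-treated column, and sequenced from Illumina stranded mRNA libraries. The authors deposited raw read counts per gene, made with FastQC, cutadapt, STAR and HTSeq on mm10, per the submitters' processing notes. No source used here gives versions, annotation or strand setting. Members, lists, tests and the rule for summing 18 month replicates 3 and 4 were chosen with earlier results of these data known. Named genes were all called members, the 2 highest by CPM of each role, and up to 4 called genes per list and comparison, of which 1 is not reported here.

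Genes passing edgeR's filterByExpr (20331) were scaled by TMM and tested with the quasi-likelihood F-test (robust, all 3 ages in 1 model, two-sided; edgeR 4.0.16, R 4.3.3) with Benjamini-Hochberg adjustment over all genes. The SE is the log2 fold change over the square root of F. The fit had a common biological coefficient of variation of 0.32 and 7 residual degrees of freedom. CPM is per TMM-scaled library size, and exon lengths are from GENCODE M21, where 97.3% of identifiers had the same coordinates. In simulated counts the test recovered 0% of 1.5-fold, 35.8% of 2-fold and 74.2% of 4-fold changes at 18 against 2 months. At 24 against 2 months it recovered 5.97%, 23.9% and 66.7%. Only 66 or 67 genes were changed at each fold, of 19856 and 19894 genes, each with a mean above 1 CPM. In the real data far more genes were called, so these rates do not carry over to them, nor to members under 1 CPM.

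Same-numbered 18 and 24 month samples deviated together (correlations 0.398, 0.283 and 0.148), a hint from the data, as no label explains the numbers. Of the unlike-numbered pairs, 24 month replicate 3 and 18 month replicate 2 gave 0.144, near the 0.148 of a same-numbered pair, and the others were negative. Deviations were taken from the mean of each age, so positive values for some pairs bring lower ones for others. The negative values thus add nothing to the hint. Same-numbered samples were taken as pairs of that comparison, where the fit with a replicate block stands as an alternative beside the fit without it. The block also covers the 2 month samples, so it does not pair these 2 ages alone. The alternatives were scaling by DESeq2's size factors or by library totals alone, no filter, a filter of 1 CPM in 3 samples, a replicate block, DESeq2 1.42.0, only the ages compared, all 11 libraries apart and leaving out each sample.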

Additional observations from a re-analysis of the deposited data

How the results depend on the processing

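No called member changed direction in any alternative. Of the 7 members called at 18 months, 1 (Adam33) was called in every alternative, and of the 25 at 24 months, 11 were. At 18 against 2 months the members called became 3 with a replicate block, 11 with all 11 libraries apart, and 1 to 9 without single samples, and the genes called overall (2349) became 1034, 4000 and 375 to 2748, and 4052 with DESeq2. At 24 against 2 months, leaving out single samples gave 14 to 25 members and 4283 to 7467 genes (7120 with all samples). At 24 against 18 months DESeq2 called 2 members and 194 genes; the 1 gene became 0 with library totals alone, with the replicate block and with only the ages compared, and 0 to 2 without single samples, while no member was called in any of these. Same-numbered 2 month and older samples had correlations of deviations of -0.109 to 0.0742, so they share only a number. With the block, the 18 month calls of Timp2, Timp3, Mmp9 and Mmp15 and the 24 month calls of Adam3, Adam8, Adam15, Adamts18, Adamtsl3 and Mmp25 were lost, as were those of Tnf (0.0709) and Tspan10 (0.0524) at 18 and Adamdec1 (0.05005) at 24 months. Library totals alone moved the median of all genes at 24 against 2 months from 0.03 to 0.22, and the share of calls that were higher from 54.9% to 73.0% (52.3% to 66.7% at 18 months), with 21 members higher and 5 lower.

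Fold changes of all 43 named members were recomputed, as were those of the other genes printed, apart from Vwf at 24 months, for which no alternative is given. Of members not called, 9, 8 and 18 changed sign and 5, 4 and 2 passed the test somewhere, at 18 against 2, 24 against 2 and 24 against 18 months. Among those printed, Adam23 at 18 against 2 months gave 0.31 with all samples and -0.058 (without the summed 18 month sample, 18 month replicate 3) to 0.56 without single samples, Adamts9 gave 0.041 with library totals alone, and Adamtsl4 at 24 against 2 months gave -0.24 to 0.95 without single samples. Values that missed the threshold passed it in 7 alternatives for Adam10, 1 for Mmp8 (replicate block, 0.0193) and 1 each for Adam11 and Adamts2 at 24 months, and in 5 for Mmp25, 4 for Adamts16, 3 for Adam17 and 1 each for Adamts2 and Adam22 at 18 months. The causes were not tested. Members and listed genes under 1 CPM rest on few reads.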
